A study of Mus musculus with 16 samples.

Results

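The genes described here are 35 cell cycle genes, of 20461 genes tested and 27670 gene names on the array. They were chosen by name from knowledge of the cell division cycle, with earlier results of these data known. Of them 21 act in mitosis or the preparation for it, 13 act at the start of or during DNA replication (S phase), and Ccnd3 encodes a cyclin of the G1 phase that precedes it. All 35 had a probe that passed the filter on dim spots, and each gene is represented by its brightest probe. RNA came from follicular B cells of C.B17 mice, the resting B cells that recirculate through lymphoid follicles, and was read on dual-colour Agilent arrays. There were 8 biological samples on 16 arrays, each sample once in Cy3 and once in Cy5. RNA of 6 cell lines in the other channel served as a shared reference pool. These lines were P388d, DN3, EL4, J558, R1 and RS2. Every level below is a log2 ratio of sample over that pool, averaged over both arrays, so that -1 means 2-fold less signal than the pool. Such a ratio holds the level of the pool as well as that of the sample, and the levels of 2 genes in it cannot be compared as amounts of RNA.

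Auto.Neg mice (n = 2) bore a transgenic anti-thymocyte/Thy-1 receptor (ATAμκTg, VH3609μ/Vk21-5κ) and lacked its antigen, being Thy-1 Knockout. Auto.Pos mice (n = 2) bore a transgenic receptor that binds goblet cells of the intestine (AGcAμκTg, VH3609μ/Vk19-17κ, a light chain that another label field gives as Vkappa17-17kappa), and their labels name no knockout. WT mice (n = 2) were wild type. The Non-edited and the Edited sample (n = 1 each) were taken from VH3609t +/- x Vk21-5Tg +/- animals, also Thy-1 Knockout. Age and sex are not in the labels, nor is it said that samples within a group are separate animals, so that p-values cover only the spread among these samples, which may be technical. Where 2 values are given for a group, sample 1 comes first.

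Mature follicular B cells rest outside the cycle until antigen and helper signals drive them into division, which in the spleen and lymph nodes happens mainly in germinal centres. A cell entering the cycle first makes D-type cyclins, whose kinases release E2F factors from the retinoblastoma proteins, and E2F then switches on the genes for replication. The genes for mitosis come on later and are held silent in resting cells by the DREAM complex, which sits on promoter elements called the cell cycle genes homology region (CHR). For these reasons mitosis genes and S-phase genes are described apart.

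Promoter windows of 4 mitosis members and 2 S-phase members are shown as examples of the elements counted below, and were chosen after their matches had been seen. They are RefSeq sequences on GRCm38.p6, each from 250 bases before to 30 bases after the annotated start site, written 5′ to 3′ along the gene. Capitals mark matches on either strand to an E2F site (TTTCCCGC, TTTGGCGC, TTTCGCGC or TTTGCCGC), to the CHR (TTTGAA) or to a CCAAT box (CCAAT). Matches of neighbouring elements may overlap.
Mki67: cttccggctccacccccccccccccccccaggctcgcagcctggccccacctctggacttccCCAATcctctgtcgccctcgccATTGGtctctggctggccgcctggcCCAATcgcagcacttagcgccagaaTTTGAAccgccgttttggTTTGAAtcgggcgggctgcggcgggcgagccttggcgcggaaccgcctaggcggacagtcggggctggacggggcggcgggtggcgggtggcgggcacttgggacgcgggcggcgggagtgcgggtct
Ccnb2: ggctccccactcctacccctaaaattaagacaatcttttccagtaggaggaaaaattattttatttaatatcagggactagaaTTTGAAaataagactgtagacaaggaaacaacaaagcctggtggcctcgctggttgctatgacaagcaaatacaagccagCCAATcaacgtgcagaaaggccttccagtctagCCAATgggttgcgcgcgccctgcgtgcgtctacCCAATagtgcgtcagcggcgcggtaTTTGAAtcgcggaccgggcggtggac
Cdc20: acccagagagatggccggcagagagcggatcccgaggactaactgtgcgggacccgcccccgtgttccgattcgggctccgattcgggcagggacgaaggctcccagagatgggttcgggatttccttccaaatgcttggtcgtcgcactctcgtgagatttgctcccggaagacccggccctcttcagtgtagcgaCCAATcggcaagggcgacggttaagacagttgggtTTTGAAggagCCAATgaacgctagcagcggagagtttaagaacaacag
Cdk1: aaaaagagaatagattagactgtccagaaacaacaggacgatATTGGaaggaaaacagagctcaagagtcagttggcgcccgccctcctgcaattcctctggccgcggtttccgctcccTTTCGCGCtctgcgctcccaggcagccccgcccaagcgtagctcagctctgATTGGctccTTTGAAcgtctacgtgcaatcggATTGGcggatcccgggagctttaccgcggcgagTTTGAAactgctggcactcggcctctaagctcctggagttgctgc
Mcm5: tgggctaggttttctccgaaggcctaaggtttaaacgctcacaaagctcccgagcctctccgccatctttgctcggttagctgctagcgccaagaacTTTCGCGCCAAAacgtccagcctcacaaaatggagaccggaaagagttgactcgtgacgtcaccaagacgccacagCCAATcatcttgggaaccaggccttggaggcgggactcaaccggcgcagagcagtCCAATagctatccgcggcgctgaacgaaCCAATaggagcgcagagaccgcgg
Mcm6: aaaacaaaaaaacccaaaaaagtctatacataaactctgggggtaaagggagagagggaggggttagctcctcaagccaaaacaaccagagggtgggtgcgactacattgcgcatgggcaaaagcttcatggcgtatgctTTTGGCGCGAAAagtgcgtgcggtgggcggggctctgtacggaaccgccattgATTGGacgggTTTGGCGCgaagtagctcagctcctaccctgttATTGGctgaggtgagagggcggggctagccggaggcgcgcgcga
The windows of Mki67 (chr7:135716350-135716629, minus strand), Ccnb2 (chr9:70421525-70421804, minus strand), Cdc20 (chr4:118437314-118437593, minus strand) and Cdk1 (chr10:69352883-69353162, minus strand) hold CHR and CCAAT matches, and that of Cdk1 an E2F match as well. Those of Mcm5 (chr8:75109259-75109538, plus strand) and Mcm6 (chr1:128359676-128359955, minus strand) hold E2F and CCAAT matches and no CHR match.

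Of the 35 members 29 were in the promoter table, and motifs were counted in windows of 300 bases, from 250 before to 50 after the start. The CHR letters were found for 12 of 17 mitosis members (70.6%), for 1 of 11 S-phase members (9.09%, Mcm2) and for 20.2% of all 27025 genes with a promoter. E2F letters were found for 1 of 17 mitosis members (5.88%, Cdk1), for 5 of 11 S-phase members (45.5%) and for 2.6% of all genes. The S-phase members with E2F letters were Mcm3, Mcm5, Mcm6, Mcm7 and Cdc6. A CCAAT box lay in 15 of 17 mitosis windows (88.2%), in 7 of 11 S-phase windows (63.6%) and in 41.1% of all genes. The window of Ccnd3 held a CCAAT box and no match of the other motifs. In other genes of mitosis, listed by the same kind of knowledge, CHR letters were found for 21 of 27, and in other genes of replication E2F letters were found for 10 of 22. A match describes letters in a window and not binding, and none of these counts was tested.

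The median signal of an array was 101.5 to 735 for Cy3 and 92.2 to 1039 for Cy5, and 61.7% to 81.8% of probes were well above background in the sample channel. There were 7 slides, 4 scan days and 2 protocols named in the file headers. Slide 2 held Auto.Neg sample 2 and Auto.Pos sample 1, and scan day 3 held Auto.Pos sample 2 and WT sample 2. The markers of mature B cells bore out the label. Of 10 markers 9 were at least 2-fold above the pool in all 8 samples, the exception being Pax5 (0.17 to 2.18), with Fcer2a (CD23) at 7.10 to 8.40 and Cr2 (CD21) at 5.28 to 7.04. Markers of immature B cells had a median of -5.32 over the samples, those of plasma cells -2.19, those of T cells -2.76 and those of germinal centre B cells -0.21. Below the pool in all 8 samples were 6 of 6, 3 of 5, 7 of 8 and 2 of 6 of them (28.4% of all genes). Of the germinal centre markers Bcl6 read 2.97 to 4.41 and Fas 0.04 to 1.05. Irf4 of the plasma cell markers read -0.36 to 1.05. Myeloid markers (8 of 10 measured) had medians of 1.74 to 3.90 and erythroid markers (5 of 6 measured) of 0.60 to 2.42 in single samples. S100a9 read 5.89 to 7.37 and Hba-a1 6.27 to 7.76, and the part of such cells in the values below was not tested.

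All 35 members were at least 2-fold below the reference pool in all 8 samples, against 11.3% of all genes. At least 4-fold below in all 8 were 26 members (4.63% of all genes), at least 8-fold 19 members (1.86%), and at least 16-fold 8 members (0.645%), of which 6 act in mitosis and 2 in S phase. The median of the mitosis members lay between -4.94 and -3.63 in the 8 samples and that of the S-phase members between -2.82 and -2.36, while the median of all genes lay between 0.04 and 0.15. Mitosis members were lower than S-phase members in 8 of 8 samples by these medians. All samples share the pool, whose levels enter this order alike each time. The order therefore does not compare amounts of RNA, and the samples are not separate checks of it. In such ratios of bulk RNA, fewer dividing cells, less RNA per cell and a high level in the pool of cell lines cannot be told apart. The reference channel was well above background on all 16 arrays for every member. The sample channel was so on all 16 arrays for 33 members, on 14 for Top2a and on 10 for Ccne2. Ccne2 was not well above background on any array of Non-edited and Edited, where its readings are upper limits of the level.

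**Figure D1:**
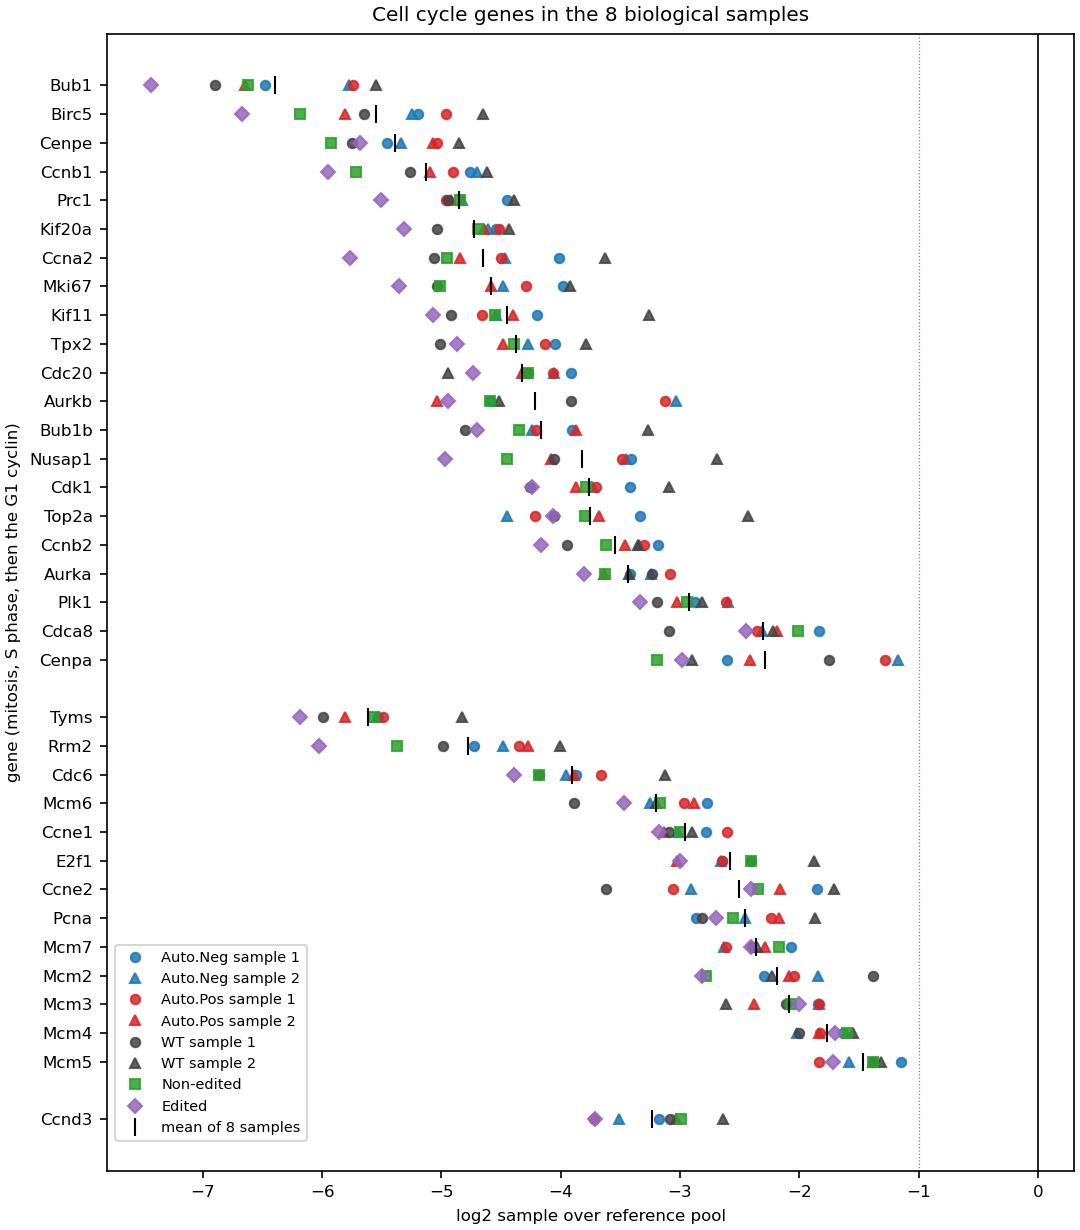
Log2 ratio of sample over reference pool (x axis) for the 35 genes (y axis), 1 point per biological sample, with the mean of the 8 samples as a vertical tick. The dotted line marks 2-fold below the pool. Every point lies to the left of it, from Bub1 (mean -6.39) to Mcm5 (mean -1.47).

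Mki67 and Top2a are the usual markers of dividing cells: Mki67 coats chromosomes in mitosis, and Top2a untangles DNA before chromosomes part. Mki67 (probe at chr7:132094802-132094861 in mm7, the build of the array files) read -5.03 and -3.92 in the WT samples, -3.98 and -4.49 in the Auto.Neg samples, -4.29 and -4.58 in the Auto.Pos samples, -5.02 in Non-edited cells and -5.36 in Edited cells. The lowest and highest of these are 1.43 apart, and samples of every replicated group overlap those of another. Top2a read -4.05 and -2.43 in the WT samples, -3.34 and -4.45 in the Auto.Neg samples, -4.22 and -3.68 in the Auto.Pos samples, -3.79 in Non-edited cells and -4.06 in Edited cells. WT sample 2 was the highest sample for both genes. A further probe of Mki67, well above background on 12 arrays, read higher than the main probe in every sample, from -4.33 to -2.04, and was again highest in WT sample 2.

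The cyclins and the kinase that drive entry into mitosis had means from -5.13 to -3.55. Ccnb1, the cyclin that activates Cdk1, read -5.27 and -4.62 in the WT samples, -4.76 and -4.71 in the Auto.Neg samples, -4.90 and -5.09 in the Auto.Pos samples, -5.72 in Non-edited cells and -5.95 in Edited cells. Its mean of -5.13 (SD 0.49, n = 8) corresponds to 34.9-fold less signal than in the pool. Edited and Non-edited were the lowest samples, and WT sample 2 was the highest. Cdk1 itself, named Cdc2a on the array, read -4.26 and -3.09 in the WT samples, -3.42 and -3.73 in the Auto.Neg samples, -3.71 and -3.87 in the Auto.Pos samples, -3.79 in Non-edited cells and -4.24 in Edited cells. Here WT sample 1 and Edited were lowest, at nearly the same value. Ccna2, which serves both S phase and early mitosis, had a mean of -4.66 (SD 0.66), and Ccnb2 one of -3.55 (SD 0.34). Ccna2 read -5.07 and -3.63 in the WT samples, -4.02 and -4.47 in the Auto.Neg samples, -4.50 and -4.84 in the Auto.Pos samples, -4.95 in Non-edited cells and -5.77 in Edited cells. Both were lowest in Edited. Ccnb2 read -3.95 and -3.35 in the WT samples, -3.19 and -3.34 in the Auto.Neg samples, -3.30 and -3.46 in the Auto.Pos samples, -3.62 in Non-edited cells and -4.17 in Edited cells.

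Plk1, a kinase that matures the spindle poles and triggers mitotic entry, read -3.20 and -2.82 in the WT samples, -2.88 and -2.59 in the Auto.Neg samples, -2.62 and -3.02 in the Auto.Pos samples, -2.94 in Non-edited cells and -3.33 in Edited cells. It varied over 0.74 and was the third highest mitosis member by its mean. The kinase Aurka of the spindle poles varied least of the mitosis members, over 0.72, around a mean of -3.43 (SD 0.24). Aurkb, the kinase of the chromosomal passenger complex, varied over 2.00, from -5.03 in Auto.Pos sample 2 to -3.03 in Auto.Neg sample 2. Its partner Birc5 (survivin) read -5.65 and -4.65 in the WT samples, -5.19 and -5.25 in the Auto.Neg samples, -4.96 and -5.81 in the Auto.Pos samples, -6.18 in Non-edited cells and -6.68 in Edited cells. Birc5 was thus 46.7-fold below the pool in the mean of the 8 samples, lowest in Edited and highest in WT sample 2. Cdca8 (borealin), of the same complex, was less far below, with a mean of -2.31 (SD 0.37).

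Genes of the spindle checkpoint and of anaphase included the lowest member. Bub1, a checkpoint kinase at the kinetochore (probe at chr2:127542105-127542164 in mm7), read -6.90 and -5.55 in the WT samples, -6.48 and -5.78 in the Auto.Neg samples, -5.75 and -6.65 in the Auto.Pos samples, -6.62 in Non-edited cells and -7.44 in Edited cells. Its mean of -6.39 (SD 0.65, n = 8) is 84.2-fold below the pool, and 0.0391% of all genes had a lower ratio. Bub1b, another checkpoint kinase, had a mean of -4.17 (SD 0.49). Cdc20, which activates the ligase that starts anaphase, read -4.27 and -4.94 in the WT samples, -3.91 and -4.06 in the Auto.Neg samples, -4.07 and -4.32 in the Auto.Pos samples, -4.27 in Non-edited cells and -4.73 in Edited cells. WT sample 2 was its lowest sample, as for Mcm3 and no other member.

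Motor proteins and spindle builders lay between -3.82 and -5.39 in the mean. Kif11, the motor that pushes spindle poles apart, read -4.92 and -3.26 in the WT samples, -4.20 and -4.54 in the Auto.Neg samples, -4.66 and -4.40 in the Auto.Pos samples, -4.55 in Non-edited cells and -5.07 in Edited cells. WT sample 2 stood apart on the high side, followed by Auto.Neg sample 1. Kif20a, a motor of the dividing cell's midzone, had a mean of -4.72 (SD 0.30), Prc1, which bundles midzone microtubules, -4.86 (SD 0.34), and Tpx2, which activates Aurka, -4.38 (SD 0.41). Nusap1, which binds spindle microtubules, had a mean of -3.82 and the widest spread of all mitosis members, from -4.97 in Edited to -2.69 in WT sample 2. Prc1 read -4.94 and -4.39 in the WT samples, -4.45 and -4.83 in the Auto.Neg samples, -4.96 and -4.92 in the Auto.Pos samples, -4.84 in Non-edited cells and -5.50 in Edited cells. Nusap1 read -4.06 and -2.69 in the WT samples, -3.41 and -3.45 in the Auto.Neg samples, -3.48 and -4.08 in the Auto.Pos samples, -4.45 in Non-edited cells and -4.97 in Edited cells. For both, Edited was lowest and WT sample 2 highest. At the kinetochore, the motor Cenpe had a mean of -5.39 (SD 0.38) and the histone variant Cenpa one of -2.29 (SD 0.79). Cenpe read -5.75 and -4.85 in the WT samples, -5.46 and -5.34 in the Auto.Neg samples, -5.03 and -5.07 in the Auto.Pos samples, -5.93 in Non-edited cells and -5.68 in Edited cells. Non-edited was its lowest sample and WT sample 2 its highest. Further kept probes of these genes differed in level: that of Cenpe read -3.00 to -1.81 and that of Cenpa -0.06 to 0.48.

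Among the S-phase genes, 5 of the 6 MCM helicase subunits, which unwind DNA at replication forks, lay closest to the pool, and Mcm6 lay lower. Mcm5 (probe at chr8:73669372-73669432 in mm7) read -1.38 and -1.31 in the WT samples, -1.15 and -1.59 in the Auto.Neg samples, -1.84 and -1.38 in the Auto.Pos samples, -1.38 in Non-edited cells and -1.72 in Edited cells. It was the highest of the 35 members, 2.77-fold below the pool in the mean, and 12.0% of all genes had a lower ratio. Mcm2 read -1.39 and -2.23 in the WT samples, -2.29 and -1.84 in the Auto.Neg samples, -2.04 and -2.08 in the Auto.Pos samples, -2.79 in Non-edited cells and -2.81 in Edited cells. Mcm7 read -2.40 and -2.36 in the WT samples, -2.07 and -2.63 in the Auto.Neg samples, -2.61 and -2.29 in the Auto.Pos samples, -2.17 in Non-edited cells and -2.41 in Edited cells. Means of Mcm3, Mcm4 and Mcm6 were -2.09 (SD 0.28), -1.77 (SD 0.18) and -3.20 (SD 0.36). Mcm3 read -2.11 and -2.61 in the WT samples, -1.84 and -1.83 in the Auto.Neg samples, -1.84 and -2.38 in the Auto.Pos samples, -2.07 in Non-edited cells and -2.00 in Edited cells. WT sample 2 was its lowest sample. Mcm6 read -3.89 and -3.21 in the WT samples, -2.78 and -3.25 in the Auto.Neg samples, -2.97 and -2.88 in the Auto.Pos samples, -3.17 in Non-edited cells and -3.47 in Edited cells, with WT sample 1 the lowest. A further Mcm3 probe, well above background on all arrays, spread wider, from -3.63 in Auto.Pos sample 1 and -3.50 in Auto.Neg sample 2, which share slide 2, to -1.01 in Auto.Neg sample 1.

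Pcna, the clamp that holds DNA polymerase on its template, read -2.82 and -1.87 in the WT samples, -2.87 and -2.45 in the Auto.Neg samples, -2.24 and -2.17 in the Auto.Pos samples, -2.56 in Non-edited cells and -2.70 in Edited cells. Both Auto.Pos samples were above both Auto.Neg samples, and the WT samples lay on either side. The enzymes that make DNA precursors were much lower. Rrm2, the regulated subunit of ribonucleotide reductase, read -4.99 and -4.00 in the WT samples, -4.73 and -4.49 in the Auto.Neg samples, -4.35 and -4.27 in the Auto.Pos samples, -5.37 in Non-edited cells and -6.03 in Edited cells. Tyms, thymidylate synthase, read -6.00 and -4.83 in the WT samples, -5.54 and -5.54 in the Auto.Neg samples, -5.49 and -5.81 in the Auto.Pos samples, -5.57 in Non-edited cells and -6.18 in Edited cells. Tyms was 49.1-fold below the pool in the mean, and Edited was lowest and WT sample 2 highest for both enzymes. Of 2 further Tyms probes, 1 tracked the main probe (-6.00 to -4.80). The other went against it, at 0.61 to 2.05, above the pool in all 8 samples and well above background on all 16 arrays.

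Cdc6, which loads the helicase onto origins, read -4.18 and -3.13 in the WT samples, -3.87 and -3.96 in the Auto.Neg samples, -3.66 and -3.89 in the Auto.Pos samples, -4.18 in Non-edited cells and -4.39 in Edited cells. Ccne1 and Ccne2 encode the E cyclins that carry cells from G1 into S phase. Ccne1 read -3.09 and -2.90 in the WT samples, -2.78 and -3.02 in the Auto.Neg samples, -2.61 and -3.13 in the Auto.Pos samples, -3.00 in Non-edited cells and -3.17 in Edited cells, a range of 0.57. Ccne2 read -3.62 and -1.71 in the WT samples, -1.85 and -2.91 in the Auto.Neg samples, -3.06 and -2.17 in the Auto.Pos samples, -2.35 in Non-edited cells and -2.40 in Edited cells, with the limit on dim arrays given above. E2f1, the activator of the replication genes (probe at chr2:154301126-154301185 in mm7), read -2.40 and -1.88 in the WT samples, -2.65 and -2.66 in the Auto.Neg samples, -2.65 and -3.03 in the Auto.Pos samples, -2.40 in Non-edited cells and -3.00 in Edited cells. WT sample 2 was the highest sample for Cdc6, Ccne2 and E2f1. Ccnd3, the D-type cyclin most used by mature B cells that divide (probe at chr17:45735858-45735917 in mm7), read -3.08 and -2.64 in the WT samples, -3.18 and -3.51 in the Auto.Neg samples, -3.72 and -3.03 in the Auto.Pos samples, -2.99 in Non-edited cells and -3.72 in Edited cells. Auto.Pos sample 1 and Edited were its lowest samples and WT sample 2 its highest.

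Genes of the same processes outside the 35 were listed from general knowledge, again with earlier results of these data known. Of 29 measured further mitosis genes 28 were below the pool in all 8 samples (28.4% of all genes), 24 of them at least 2-fold (11.3%). Their median over the samples was -3.14. The highest was Cdc25b, a phosphatase that activates Cdk1, which read 0.11 to 1.02 and so lay above the pool throughout. The lowest was Ncapg, a condensin subunit, at -5.97 to -4.38. Of 27 further S-phase genes 26 were below the pool in all 8 samples (28.4% of all genes), 20 at least 2-fold (11.3%). Their median was -2.10. Their highest gene was Pold1, a DNA polymerase subunit, at -0.51 to 0.67, and their lowest Uhrf1, which maintains DNA methylation, at -5.43 to -4.59.

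Genes of G1 entry had a median of -2.16, near that of the further S-phase genes. Of 7 such genes 5 were at least 2-fold below the pool in all 8 samples (11.3% of all genes). The lowest was Tfdp1, the E2F partner, at -4.38 to -3.58. The exceptions were Ccnd2 (-1.55 to 0.65) and E2f2 (0.69 to 1.50). Of 24 measured genes that brake the cycle or mark quiescence, 4 were at least 2-fold above the pool in all 8 samples (8.84% of all genes), namely Klf2, Btg1, Btg2 and Foxo1. Klf2, a factor of resting lymphocytes, read 7.24 and 5.22 in the WT samples, 6.47 and 7.30 in the Auto.Neg samples, 7.46 and 6.60 in the Auto.Pos samples, 6.51 in Non-edited cells and 6.63 in Edited cells. Btg1, an antiproliferative gene, read 5.00 to 5.69. The median of these brakes was 0.43, and 8 of the 24 were below the pool in all samples, near the share of all genes (28.4%). The lowest was Cdkn2b, a kinase inhibitor, at -5.36 to -3.89.

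**Figure D2:**
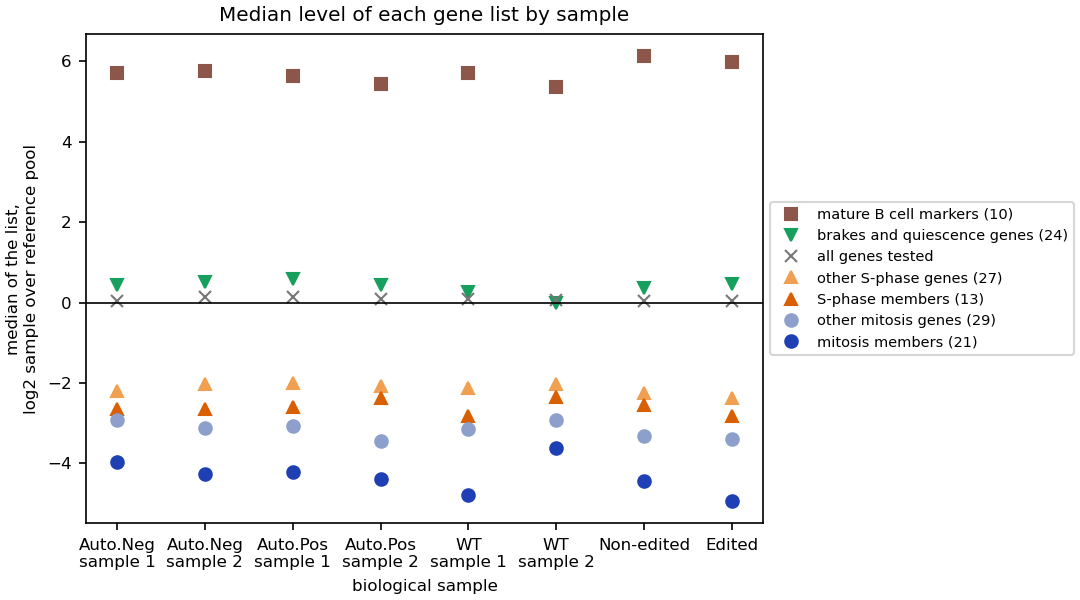
Median log2 ratio of sample over reference pool (y axis) of each gene list in each biological sample (x axis), 1 point per list and sample. Of the lists drawn, the mitosis members are the lowest in all 8 samples (-4.94 to -3.63) and the mature B cell markers the highest (5.38 to 6.13). Other cell type markers are not drawn.

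By the median gap, the members differed more between the WT samples than between the samples of the other replicated groups. WT sample 2 was above WT sample 1 for 17 of 21 mitosis members (81%) and 11 of 13 S-phase members (84.6%), against 47.7% of all genes. The median gap was 0.90 for mitosis and 0.53 for S phase, and -0.02 over all genes. The widest of genes well above background on all WT arrays were those of Kif11 (1.66), Top2a (1.63) and Bub1b (1.53). The gap of Ccne2 was 1.91, but only 1 of the 2 arrays of WT sample 2 was well above background. Cenpa (-1.14), Mcm2 (-0.84), Cdc20 (-0.67), Aurkb (-0.60), Mcm3 (-0.50) and Aurka (-0.20) ran the other way. Auto.Neg sample 2 was above sample 1 for 7 of 21 mitosis and 4 of 13 S-phase members (62.7% of all genes), and Auto.Pos sample 2 above sample 1 for 5 of 21 and 6 of 13 (37.7% of all genes). Of the 35 members 22 were highest in WT sample 2 (12.8% of all genes) and 17 lowest in Edited (15.7% of all genes). The array of WT sample 2 with the sample in Cy3 was the brightest of the 16, with medians of 735 and 1039. WT sample 1 and WT sample 2 differed in slide, scan day and header protocol, and the part of these in the gap was not tested.

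**Figure D3:**
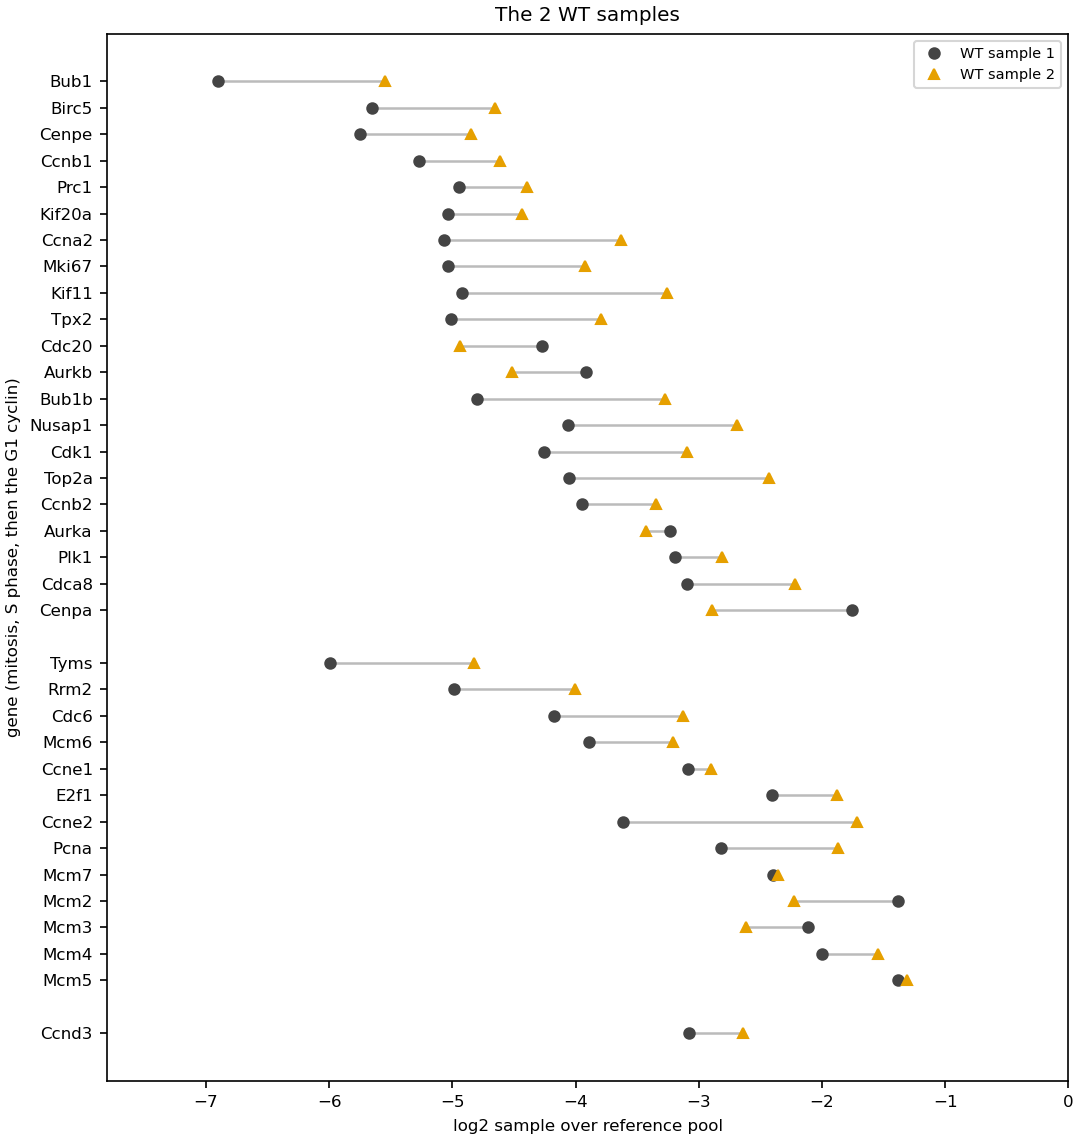
Log2 ratio of sample over reference pool (x axis) in WT sample 1 and WT sample 2 for each member (y axis), joined by a line. WT sample 2 lies to the right for 28 of the 34 mitosis and S-phase members and for Ccnd3.

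Dye and the protocol of the file headers moved with some of these values. With the sample in Cy5, both list medians were higher than with the sample in Cy3 in 8 of 8 samples, by 0.06 to 0.67 for mitosis and by 0.13 to 0.81 for S phase. Each sample has 1 array of either kind, so the averages hold both equally. The older protocol was used for 3 samples (Auto.Neg sample 2, Auto.Pos sample 1 and WT sample 1) and the newer for 5. The older 3 were scanned on days 1 and 2 and the newer 5 on days 3 and 4. Protocol and scan period thus cannot be told apart. The older 3 lay above the newer 5 without overlap for 4 members (16.6% of all genes), namely Aurka, Aurkb, Cenpa and Mcm2, and below them for Ccne2 (8.52% of all genes). For Cenpa the older samples read -1.75 to -1.17 and the newer -3.19 to -2.41. Each replicated group has 1 sample of either protocol, and Edited and Non-edited are both of the newer. With 1 sample of either protocol per group, a block for the protocol cannot change the list medians of these comparisons. That they stayed the same says nothing of the protocol's effect.

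Auto.Pos against Auto.Neg sets cells whose receptor can bind its antigen in the animal beside cells whose antigen is missing. The groups also differ in the receptor transgene and, by their labels, in the Thy-1 knockout. Antigen, receptor and knockout cannot be told apart here. None of the 35 members passed limma's test, adjusted over all genes by Benjamini and Hochberg at 0.05, and 3 of 20461 genes did (0.0147%). At an unadjusted p under 0.05 there were 0 members and 213 genes (1.04%). The median difference was -0.16 for mitosis (18 of 21 lower in Auto.Pos) and -0.01 for S phase (7 of 13 lower), against 0.02 for all genes. Within slide 2, which holds a sample of each group, it was 0.03 for mitosis and 0.05 for S phase. The 95% confidence interval held 0 for all 35, and for 15 it stayed within 2-fold in both directions.

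In this comparison 3 members were higher in both Auto.Pos samples than in both Auto.Neg samples (11.1% of all genes) and 5 were lower (8.17%). The higher were Pcna, Rrm2 and Cenpe, and the lower Ccna2, Ccnb1, Cdc20, Nusap1 and Prc1. In the further kept probes of Ccnb1, Cenpe and Nusap1 the samples of the groups overlapped. With the mean of the kept probes these differences were -0.07 for Ccnb1, 0.17 for Cenpe and -0.30 for Nusap1. Pcna had the largest difference, 0.46 (SE 0.37, 95% interval -0.49 to 1.40, adjusted p = 0.9999 in limma). Ccna2 differed by -0.43 (SE 0.51), Cenpe by 0.35 (SE 0.33) and Rrm2 by 0.30 (SE 0.36). Differences within slide 2 were smaller for all 4, at 0.21, -0.03, 0.30 and 0.14 in the same order. Among further genes of mitosis the largest difference was that of Smc4, a condensin subunit, which read -2.21 and -1.41 in the WT samples, -2.05 and -2.07 in the Auto.Neg samples, -0.92 and -0.70 in the Auto.Pos samples, -1.24 in Non-edited cells and -0.91 in Edited cells. Both Auto.Pos samples were above both Auto.Neg samples, by 1.25 in the mean (SE 0.31), at an unadjusted p of 0.00976 that did not pass the adjustment in limma. Plk4 (-0.58, SE 0.38) and Smc2 (-0.53, SE 0.57) followed, and the further S-phase genes Cdc25a and Fen1 differed by -0.57 (SE 0.43) and -0.48 (SE 0.63). At G1 entry the differences were -0.40 for Tfdp1 (SE 0.27), -0.40 for Ccnd2 (SE 0.33) and 0.29 for Ccnd1 (SE 0.44), and among the brakes 0.68 for Cdkn2c (SE 0.32), 0.47 for Rbl1 (SE 0.59) and 0.41 for Lin9 (SE 0.29). None of these passed the adjusted threshold in limma.

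Auto.Pos and Auto.Neg were each compared with WT, and both comparisons share the WT samples. Against WT, 0 members and 0 of 20461 genes (0%) passed limma's adjusted threshold in either. At an unadjusted p under 0.05 there were 1152 genes (5.63%) and 1 member (E2f1) for Auto.Pos, and 941 genes (4.6%) and 0 members for Auto.Neg. The mitosis median was 0.03 for Auto.Pos and 0.10 for Auto.Neg, and the S-phase median -0.06 and -0.05, against 0.06 and 0.04 over all genes. On scan day 3, Auto.Pos sample 2 lay below WT sample 2 by a median of -0.53 for mitosis and -0.27 for S phase. The sign of all 4 medians rested on which WT sample was kept. Without WT sample 1 the median difference of Auto.Pos was -0.51 for mitosis and -0.30 for S phase, and without WT sample 2 it was 0.39 and 0.22. For Auto.Neg it was -0.31 and -0.28 without WT sample 1, and 0.53 and 0.19 without WT sample 2.

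E2f1 had the largest difference of the S-phase members in Auto.Pos. Both WT samples (-2.40 and -1.88) were above both Auto.Pos samples (-2.65 and -3.03) and both Auto.Neg samples (-2.65 and -2.66). Auto.Pos was lower by 0.70 on the log2 scale (difference -0.70, SE 0.27, 95% interval -1.38 to -0.02, adjusted p = 0.873 in limma), and Auto.Neg by 0.51 (difference -0.51, SE 0.27). A second E2f1 probe read -2.60 and -2.21 in the WT samples, -2.83 and -2.99 in the Auto.Neg samples, -2.86 and -3.20 in the Auto.Pos samples, -2.69 in Non-edited cells and -3.18 in Edited cells, with the same order of groups. On scan day 3 the gap to Auto.Pos was -1.15. Without WT sample 1 the differences were -0.96 and -0.78, and without WT sample 2 they were -0.44 and -0.25, in the order Auto.Pos and Auto.Neg. Non-edited (-2.40) read as WT sample 1 did.

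Ccnd3 was lower in both Auto.Neg samples than in both WT samples (difference -0.48, SE 0.33, or -0.70 without WT sample 1 and -0.26 without WT sample 2), while Auto.Pos (difference -0.51, SE 0.33) overlapped WT. Mcm6 was higher in both Auto.Pos samples than in both WT samples (difference 0.63, SE 0.31, adjusted p = 0.996 in limma). Its difference was 0.28 without WT sample 1 and 0.97 without WT sample 2. Cdc20 (0.62, SE 0.29), Mcm3 (0.53, SE 0.29) and Ccnb2 (0.39, SE 0.26) were higher in both Auto.Neg samples than in both WT samples. Without WT sample 1 these differences were 0.96, 0.78 and 0.09, and without WT sample 2 they were 0.29, 0.28 and 0.69, in the same order. With the mean of its kept probes the Mcm3 difference was 0.05, and the samples of its further probe overlapped between Auto.Neg (-1.01 and -3.50) and WT (-2.02 and -1.62). Members without overlap thus numbered 1 higher (19.2% of all genes) and 1 lower (10.4%) for Auto.Pos, and 3 higher (15.4%) and 2 lower (9.57%) for Auto.Neg. Top2a had the largest differences, -0.71 (SE 0.66) for Auto.Pos and -0.66 (SE 0.66) for Auto.Neg, with overlapping samples. The interval held 0 for 34 of 35 members in Auto.Pos and for all 35 in Auto.Neg, and it stayed within 2-fold for 11 and 10.

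None of the genes of G1 entry and of the brakes passed the adjusted test against WT. Their median differences were -0.18 and 0.23 for Auto.Pos (0.06 over all genes) and -0.15 and 0.10 for Auto.Neg (0.04 over all genes). At an unadjusted p under 0.05 in limma there were 2 of 7 and 3 of 24 for Auto.Pos (5.63% of all genes). For Auto.Neg there were 2 of 7 and 2 of 24 (4.6% of all genes). The genes with the largest differences of each list follow. Ccnd2, another D-type cyclin, read 0.08 and 0.19 in the WT samples, -0.54 and -0.99 in the Auto.Neg samples, -0.77 and -1.55 in the Auto.Pos samples, -0.03 in Non-edited cells and 0.65 in Edited cells. Both groups lay below WT, Auto.Pos by -1.30 (SE 0.33) and Auto.Neg by -0.90 (SE 0.33). Cdk6, a kinase partner of D cyclins, read -3.70 and -4.17 in the WT samples, -3.16 and -3.27 in the Auto.Neg samples, -2.79 and -3.26 in the Auto.Pos samples, -3.96 in Non-edited cells and -3.30 in Edited cells. It was above WT by 0.91 (SE 0.27) in Auto.Pos and by 0.72 (SE 0.27) in Auto.Neg. Lin54, the DREAM subunit that binds the CHR, read -1.25 and -0.35 in the WT samples, 0.42 and 0.23 in the Auto.Neg samples, 0.62 and 0.56 in the Auto.Pos samples, 0.72 in Non-edited cells and 0.38 in Edited cells. Its difference was 1.39 (SE 0.34) in Auto.Pos and 1.12 (SE 0.34) in Auto.Neg, with WT sample 1 the lowest sample. Cdkn1c, a kinase inhibitor, read 0.43 and -0.51 in the WT samples, 0.49 and 2.43 in the Auto.Neg samples, 2.40 and 0.32 in the Auto.Pos samples, 0.31 in Non-edited cells and 0.80 in Edited cells. The Cdkn1c samples on slide 2 stood apart from the rest, and its differences of 1.39 and 1.49 had an SE of 0.95. Cdk4, a kinase of D cyclins, differed by -0.56 and -0.53 (SE 0.34). The DREAM subunit Lin9 was higher in Auto.Pos by 0.86 (SE 0.29), and Rbl2, a retinoblastoma-family protein, differed by -0.93 (SE 0.31) in Auto.Neg. In the further mitosis genes Ckap5, a microtubule polymerase, had differences of -1.30 and -1.47 (SE 0.62), followed in Auto.Pos by Smc4 (1.00, SE 0.31) and the motor Kif2c (-0.93, SE 0.32), and in Auto.Neg by Ncapg (0.73, SE 0.52) and Cdca3 (0.71, SE 0.25). In the further S-phase genes the largest were, for Auto.Pos, Cdc45 (-0.72, SE 0.66), Chaf1a (-0.67, SE 0.43) and Orc6 (0.62, SE 0.18), and for Auto.Neg, Pold1 (-0.62, SE 0.32), Slbp (0.53, SE 0.39) and Gins2 (-0.50, SE 0.46).

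**Figure D4:**
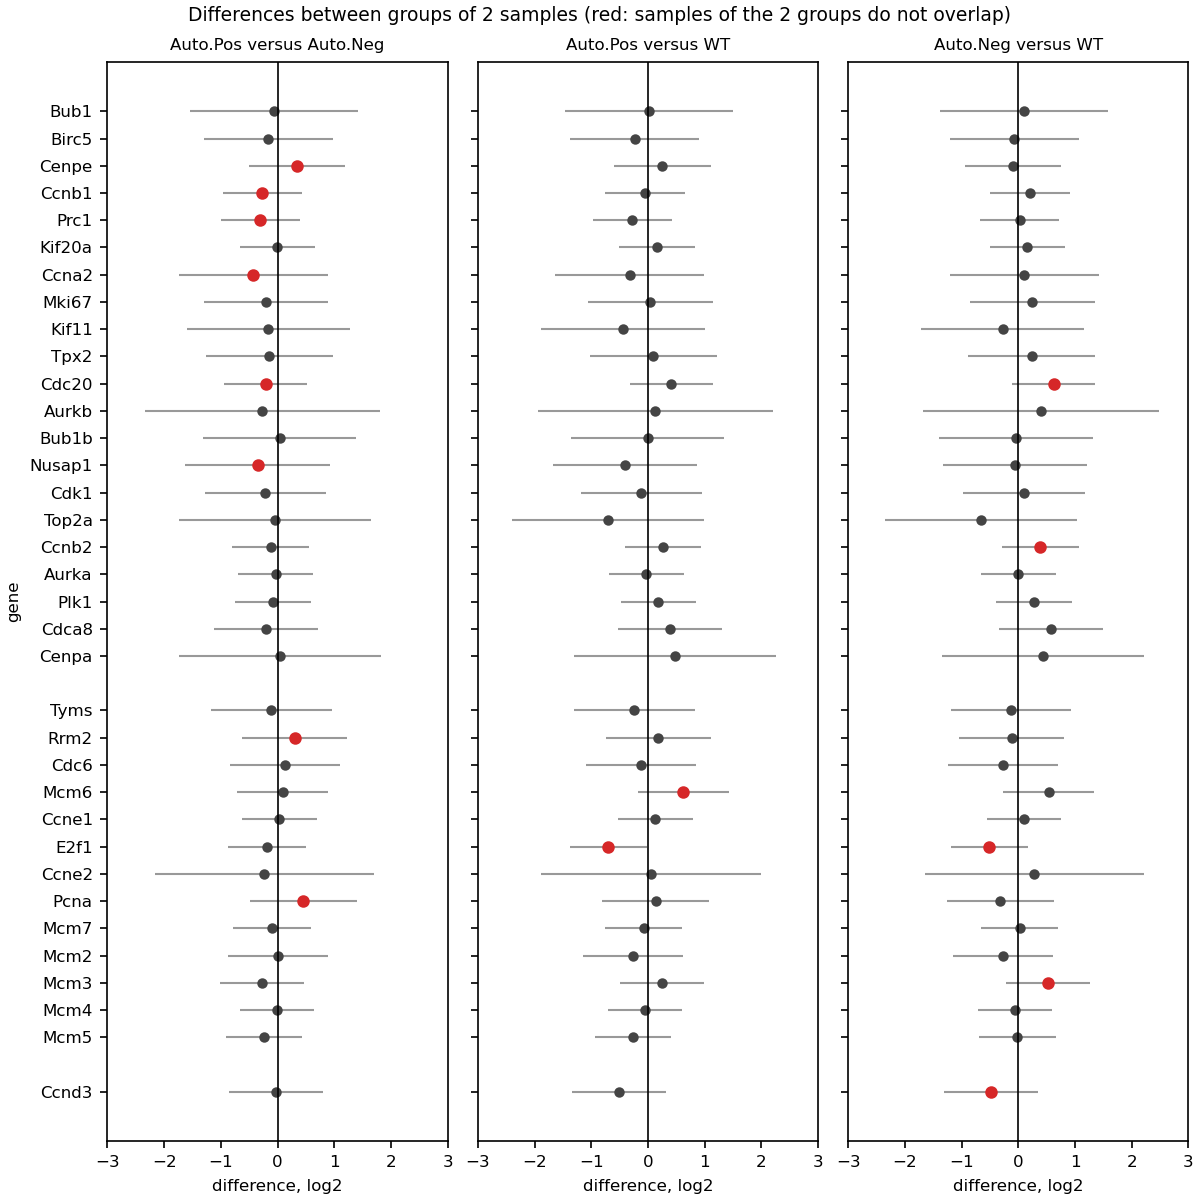
Differences between groups of 2 samples on the log2 scale (x axis) for each member (y axis), with limma's 95% confidence interval as a line; red points mark genes whose samples do not overlap between the groups. All intervals hold 0 except that of E2f1 in Auto.Pos versus WT (-1.38 to -0.02).

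Edited and Non-edited cells, which carry the same transgenes, were compared with 1 sample each, so that the difference has no replicate check. With each dye orientation taken alone, none of the 35 members was 2-fold or more apart in both, against 284 of 20344 genes (1.4%), 249 higher in Edited (1.22%) and 35 lower (0.172%). Edited was lower in both orientations for 30 of 35 members, 19 of 21 in mitosis, 10 of 13 in S phase and Ccnd3, against 38.5% of all genes. The median difference was -0.45 for mitosis, -0.21 for S phase and -0.03 for all genes. That count rested on the scaling. With arrays centred on the median in place of loess, 2 of 35 members were lower in both orientations (9.71% of all genes), and the medians were -0.18 for mitosis and 0.05 for S phase beside 0.10 for all genes. With the scanner software's own ratio 29 of 35 were lower in both (36.1% of all genes), with medians of -0.48 and -0.18 beside 0.0008 for all genes.

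Bub1 (-0.81), Ccna2 (-0.81) and Ccnd3 (-0.72) had the largest differences, followed by Prc1 and Rrm2 (-0.66 each). Bub1 differed by -0.92 with the samples in Cy5 and by -0.70 with the samples in Cy3. Ccna2 was less even, at -0.47 and -1.16. Ccnd3 gave -0.74 and -0.70. Mki67 differed by -0.34, Tyms by -0.62, E2f1 by -0.60 and Birc5 by -0.49. The exceptions that were higher in Edited in both orientations were Cenpe (0.25), Cenpa (0.21) and Mcm3 (0.07), and Mcm2 and Ccne2 had opposite signs in the 2 orientations. For scale, the mitosis medians of the 2 WT samples, which share a group, were 1.17 apart. Edited and Non-edited lay on different slides of 1 scan day. Markers of immature B cells differed by a median of -0.50 between them, erythroid markers by -0.41, T cell markers by -0.27 and mature B cell markers by 0.13. Plasma cell markers differed by 0.33 and myeloid markers by 0.08. Single markers differed more. Lck (1.86), Mpo (1.62) and Adgre1 (1.49) were at least 2-fold higher in Edited in both orientations (1.22% of all genes). Ltf (-1.90) and Xbp1 (-1.03) were at least 2-fold lower (0.172%). The part of such cells was not tested.

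Further genes ran both ways between Edited and Non-edited. In mitosis Melk (-0.93) and Nek2 (-0.80), both kinases, were lower in Edited, while Mad2l1, a spindle checkpoint protein, was higher (0.76). In S phase Uhrf1 (-0.83), Pold1 (-0.69) and Cdc25a (-0.51) were lower. Of 29 further mitosis genes 24 were lower in both orientations and of 27 further S-phase genes 18, against 38.5% of all genes. These counts were made with loess only, and that of the members rested on the scaling. At G1 entry Ccnd2 (0.68) and Cdk6 (0.65) were higher in Edited and Ccnd1 (-0.37) lower. Among the brakes Cdkn1a (-0.50) was lower and Cdkn1c (0.49) and Cdkn2d (0.45) were higher. Of these genes none was 2-fold apart in both orientations.

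**Figure D5:**
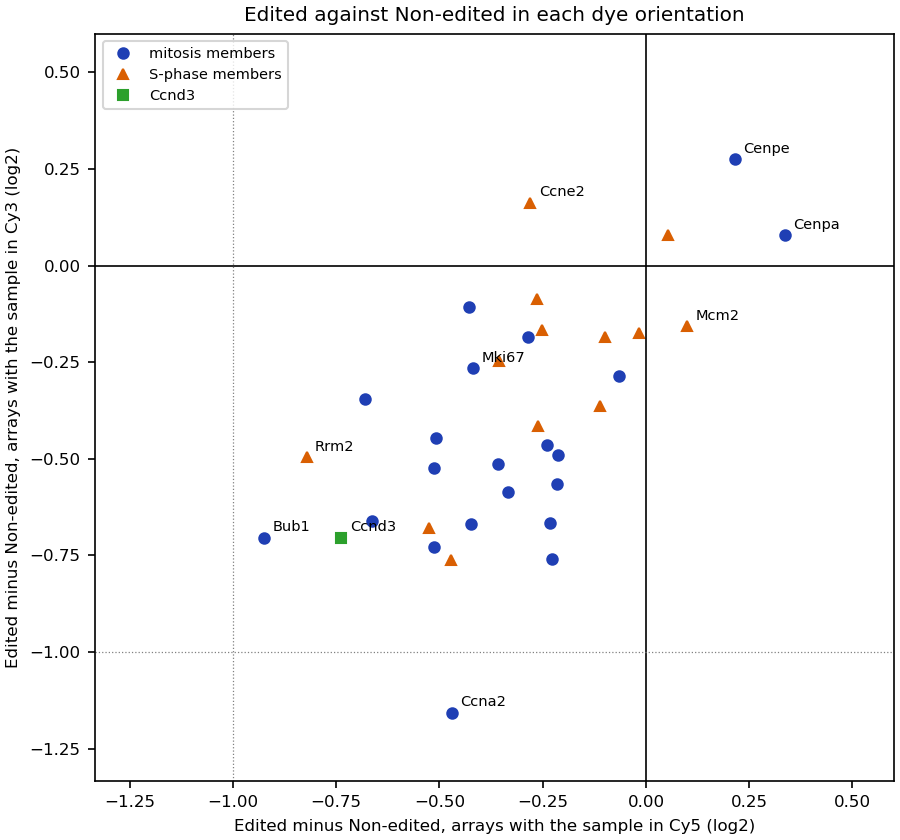
Difference of Edited minus Non-edited on the log2 scale, with the samples in Cy5 (x axis) and in Cy3 (y axis), 1 point per member; dotted lines mark 2-fold lower. Of the 35 points 30 lie to the lower left of the zero lines, and none is past 2-fold on both axes.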

How the data were processed

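Per the file headers, the deposited scanner files were written by Agilent Feature Extraction (9.1.3.1, 9.1.1.1 or 9.5.1.1). For either channel they list, per the file headers, a spot's raw intensity and that of its surroundings. Their log10 ratio was, per the file headers, spatially detrended, background-subtracted and dye-normalized by LOWESS. A single log2 ratio per array stands in the deposited series table, and the submitters' processing notes name limma for it without a version. Of its 16 columns 10 matched another array than their label best (absolute correlation 0.977 to 0.996) and 8 had the opposite sign, so it served only as an alternative. It has 0 columns of no sample. Its column medians ran from -0.0171 to 0.016. Its labels stay unsettled, as does the direction of the columns that matched another array. Per the labels' protocols, amplification started from 100 ng of RNA.

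In R 4.3.3 with limma 3.58.1, intensity was background-corrected (normexp, offset 50) and loess-normalized within arrays, giving control spots a weight of 0 and leaving out spots marked as outliers. To be kept, a probe had to be well above background in the sample channel on both arrays of at least 2 samples (29628 of 41174 probes). Ratios were turned to sample over reference before averaging each dye-swap pair, with 351 gene-by-sample values from 1 array and 6 genes lacking a sample. Probe names came from accessions (22951), the file's own name (8455), symbols (6659) and synonyms (3109). limma was fitted to 8 samples with 1 mean per group (3 residual and 2.11 prior degrees of freedom), and adjusted p-values below 0.05 were called.

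The members and lists were chosen with earlier results of these data known. Values in all samples are printed for the best known members and for those without overlap between groups. Other genes of mitosis, S phase, G1 entry and the brakes are named where they were highest or lowest or among the 3 largest differences of a comparison. Cell type markers are named as examples, and where 2-fold apart in both orientations between Edited and Non-edited. The alternatives were no background correction, median centring, the scanner's ratio, no filter, the mean of all kept probes, the series table as labelled and rematched, blocks for sample number and protocol, and leaving out each replicate. Of the genes so named, 1 is not reported here.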

Additional observations from a re-analysis of the deposited data

How the results depend on the processing

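The number of samples limits every comparison. The members called numbered 0 in each of the 3 group comparisons under every alternative run, and 199 of 231 summary values stayed within the spread between replicates or, for counts, within 1.5 times. Of 104 list median differences 18 took the other sign. Both tallies include values that could not move. With sample number or protocol as a block, or without the filter, the list medians between replicated groups equal the main ones. Leaving out a replicate leaves the comparison that does not hold its group as it was. Over all genes, those called between Auto.Pos and Auto.Neg numbered 1 with median centring and 6 with the header protocol as a block. They numbered 0 without the filter and in the series table as labelled. Deviations of samples with the same number correlated at -0.788 for Auto.Neg and Auto.Pos, -0.279 for Auto.Neg and WT and 0.252 for Auto.Pos and WT. Thus Auto.Neg sample 2 went with Auto.Pos sample 1, which shares its slide, scan day and protocol. The main fit has no term for this. With the sample number as a replicate block 0 genes were called between Auto.Pos and Auto.Neg. Auto.Pos against WT gave 15 genes with the scanner's ratio and 14 in the rematched table, where Auto.Neg against WT gave 1. Edited and Non-edited were 2-fold apart in 808 genes and 1 member (Bub1) with the scanner's ratio, in 1 gene in the table as labelled, and limma, lending these samples the other groups' spread, called 0 genes and 0 members (241 genes and 0 members at an unadjusted p under 0.05). Median centring put the level of mitosis members at -5.02 and of S-phase members at -3.32, and their S-phase difference of Edited at 0.055; the all-gene median went there from 0.07 to -0.03 for the levels and from -0.03 to 0.10 for Edited. The scanner's ratio put the S-phase level at -2.95 and the all-gene median at 0.22. Leaving out 1 replicate gave medians of -0.51 to 0.39 (mitosis) and -0.30 to 0.22 (S phase) for Auto.Pos against WT, and -0.31 to 0.53 and -0.28 to 0.19 for Auto.Neg against WT. In the table as labelled, whose ratios were read as red over green, levels were 0.39 and 0.29, members below the pool in all samples 0, and medians of Edited 0.091 and 0.036. There the sign turned for 9 named differences: Ccnb1 0.025, Cdc20 0.081, Pcna -0.017 and Rrm2 -0.11 (Auto.Pos against Auto.Neg), E2f1 0.12 (Auto.Pos against WT), and Cdc20 -0.083, Mcm3 -0.31, E2f1 0.27 and Ccnd3 0.25 (Auto.Neg against WT). The 6 columns that matched their own array correlated positively with its red over green ratio in Cy5 and negatively in Cy3 (Edited 0.994 and -0.989). They thus already held sample over reference. Turning their Cy3 columns again made the arrays of a pair largely cancel. Values of the table as labelled are therefore no check on the others. The cause of the other shifts was not tested. A slide random block was not run, because with 1 shared slide its correlation could not be estimated.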
